A study of Mus musculus with 15 samples.

Results

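The genes described here are 48 mouse genes of DNA replication and of the passage from G1 into S phase, out of the 53465 Ensembl genes in the deposited count matrix. They were chosen by symbol from a list of replication factors, cyclins and related genes whose rule uses no measured value, although earlier results of these data were known when it was made, and each symbol matched 1 gene identifier. All 48 passed the filter on low counts, so that no member was left out. The study compared what IL-4, IL-13 and IL-6 do to macrophages cultured from bone marrow (BMDMs). The marrow came from mice at 8 to 12 weeks of age, and had been kept for 7 days with 20 ng/ml M-CSF, the growth factor of macrophages. The cells then received no cytokine (control), 10 ng/ml IL-4, the same IL-4 with 40 ng/ml IL-6 (IL-4+IL-6), 40 ng/ml IL-13, or the same IL-13 with 40 ng/ml IL-6 (IL-6+IL-13), each for 24 h and in 3 replicates. No group received IL-6 alone, so that every effect of IL-6 described here is one on top of IL-4 or IL-13.

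Before a cell copies its DNA, the origin recognition complex, CDC6 and CDT1 load the MCM2-7 helicase onto origins in G1, and the helicase is switched on at the start of S phase by CDC45 and the GINS complex. DNA polymerases then copy the strands with the sliding clamp PCNA, and ribonucleotide reductase and thymidylate synthase supply the building blocks. The program is opened by cyclin D and cyclin E kinases, which release E2F transcription factors from the retinoblastoma proteins. Macrophages in culture divide in response to M-CSF, and IL-4 is known for driving macrophage proliferation in tissues.

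Many of these genes carry E2F sites in their promoters, and a set of promoter windows is printed here because E2F is the factor that the G1/S program is built around. RefSeq promoter sequences of GRCm38.p6, from 250 bases before to 50 bases after the start of each gene, were found for 38 of the 48 members. They were searched on both strands for the E2F letters TTTGGCGC, TTTCGCGC, TTTCCCGC or TTTGCCGC. At least 1 match was present in 15 of 38 members (39.5%), and in 2.6% of the 27025 genes with a promoter sequence. The windows below lie before the RefSeq start, share no base with an annotated exon, run 5′ to 3′ on the strand of the gene, and have every match of these letters or their reverse complement in capitals. By the wider GENCODE coordinates given below for these genes, the windows of Cdc6 and Uhrf1 lie inside the gene, after an earlier annotated start. Mcm6, a helicase subunit, has 3 matches, of which the one shown begins 47 bases before the start, and Mcm5, another subunit, has 2 that overlap, beginning 153 and 149 bases before it. The matches of the loading factor Cdc6 and of Pola1, the catalytic subunit of the polymerase that starts each strand, begin 138 bases before the start, and that of Uhrf1, which maintains DNA methylation, 185 bases.
Mcm6, chr1:128359725-128359772, minus strand: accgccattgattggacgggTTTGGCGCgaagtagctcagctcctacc
Mcm5, chr8:75109336-75109383, plus strand: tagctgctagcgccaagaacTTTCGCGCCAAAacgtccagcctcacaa
Cdc6, chr11:98907993-98908040, plus strand: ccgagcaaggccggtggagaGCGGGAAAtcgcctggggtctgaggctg
Pola1, chrX:93632266-93632313, minus strand: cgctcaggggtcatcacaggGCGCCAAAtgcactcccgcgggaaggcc
Uhrf1, chr17:56304108-56304155, plus strand: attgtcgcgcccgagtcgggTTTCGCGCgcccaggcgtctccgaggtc

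The same promoters were searched for other letters. CCAAT, the box bound by NF-Y, was in 24 of 38 member promoters (63.2%) and in 41.1% of all genes. TTTGAA, a core of the CHR element of genes of G2 and mitosis, was in 5 (13.2%) and in 20.2% of all genes. For the factors that IL-4 and IL-6 activate, the STAT6 letters (TTC and GAA with 4 bases between them) were in 4 (10.5%) against 8.01% of all genes, and the STAT3 letters (the same with 3 bases between) in 3 (7.89%) against 9.55%. A match describes letters only and not a bound site.

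The summed counts per library were between 17001352 and 18918686. The summed level of 10 macrophage markers was 20100 to 22400 CPM (the count scaled to the size of the library) in control, 15700 to 16200 in IL-4, 12000 to 14300 with IL-4+IL-6, 18400 to 21400 in IL-13 and 15800 to 16900 in IL-6+IL-13. Most of each sum was Lyz2, with group means of 14900, 9690, 6850, 12700 and 8690 CPM in the same order. With IL-4, 2 of the 10 were higher (32.1% of all genes), 5 lower (35.9% of all genes) and 3 without a call, with a median log2 fold change of -0.10. Mertk fell from 142 to 8.27 CPM and Cd14 from 292 to 101, while C1qa rose from 175 to 276 (group means). When IL-6 was added to IL-4, 3 of the 10 were higher (20.7% of all genes) and 6 lower (18.7% of all genes), with a median of -0.19. On top of IL-13, 5 were higher (12.1% of all genes) and 2 lower (13.5% of all genes), with a median of 0.33, although the sum was lower. As a check of the treatment with IL-6, the mean level of Socs3, an IL-6 target, went from 1.69 CPM with IL-4 to 129 once IL-6 was added. The study calls the replicates biological, and whether they came from separate mice is not given in the sources used here, so that p-values measure the spread between these libraries. The biological coefficient of variation, which is the variation between replicates beyond counting error, was 4.49% in control, 4.54% in IL-4, 14.9% in IL-4+IL-6, 10.9% in IL-13 and 7.39% in IL-6+IL-13. Replicate 2 of IL-4+IL-6 and replicate 1 of IL-13 stood apart from the others of their group, and longer genes were lower in them (Spearman's rho between gene length and the deviation from the group mean of -0.414 and -0.422 across 13938 genes, which are not independent replicates).

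IL-4 raised all 48 genes over control. The log2 fold changes ran from 0.55 to 4.02 with a median of 1.60, whereas the median of the 13938 genes tested was -0.05. All 48 passed the quasi-likelihood test of edgeR (Benjamini-Hochberg adjusted p under 0.05), as did 32.1% of all genes in this direction. For 42 of the 48 the log2 fold change exceeded 1, against 10.0% of all genes. IL-13 also raised all 48 (29.0% of all genes), by 0.42 to 4.35 with a median of 1.69, and 41 of them by more than 1 (7.74% of all genes). For each of the 48 genes, the lowest library of either cytokine was above the highest control library. In bulk RNA, more cells in which a gene is on and more RNA of that gene per cell cannot be told apart.

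Adding IL-6 lowered nearly the whole set again. In IL-4+IL-6 against IL-4, 47 of 48 were lower (18.7% of all genes), 19 of them by more than 1 on the log2 scale (7.47% of all genes), with a median of -0.84 against 0.04 over all genes. Fen1, which is low in these counts, was the exception at -0.83 ± 0.322 (SE, adjusted p = 0.0515). In IL-6+IL-13 against IL-13, 42 of 48 were lower (13.5% of all genes), 5 of them by more than 1 (4.19% of all genes), with a median of -0.57 against 0.01 over all genes. The 6 without a call there were Orc1, Gins1, Rfc1, Pole2, Fen1 and Ccnd1. Without IL-4+IL-6 replicate 2, 47 were again called lower than IL-4, 20 of them by more than 1, and without IL-13 replicate 1, 42 were called lower than IL-13, with 7 by more than 1.

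The summed level of the 48 genes shows both steps in each library. It was 1673, 1582 and 1550 CPM in the control libraries, 5347, 5702 and 5473 in IL-4, and 2882, 3040 and 2925 with IL-4+IL-6. In IL-13 it was 5932, 5725 and 5723, and in IL-6+IL-13 4044, 3983 and 4008. No library of one group reached the range of another, although IL-4 and IL-13 came close, at 5702 and 5723 for their nearest libraries. The mean rose 3.44-fold ± 0.177 (SD, n = 3) with IL-4 and 3.62-fold ± 0.162 with IL-13, and IL-6 brought it to 0.535 ± 0.0229 of the IL-4 level and to 0.692 ± 0.0153 of the IL-13 level. No test was run on this sum.

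**Figure D1:**
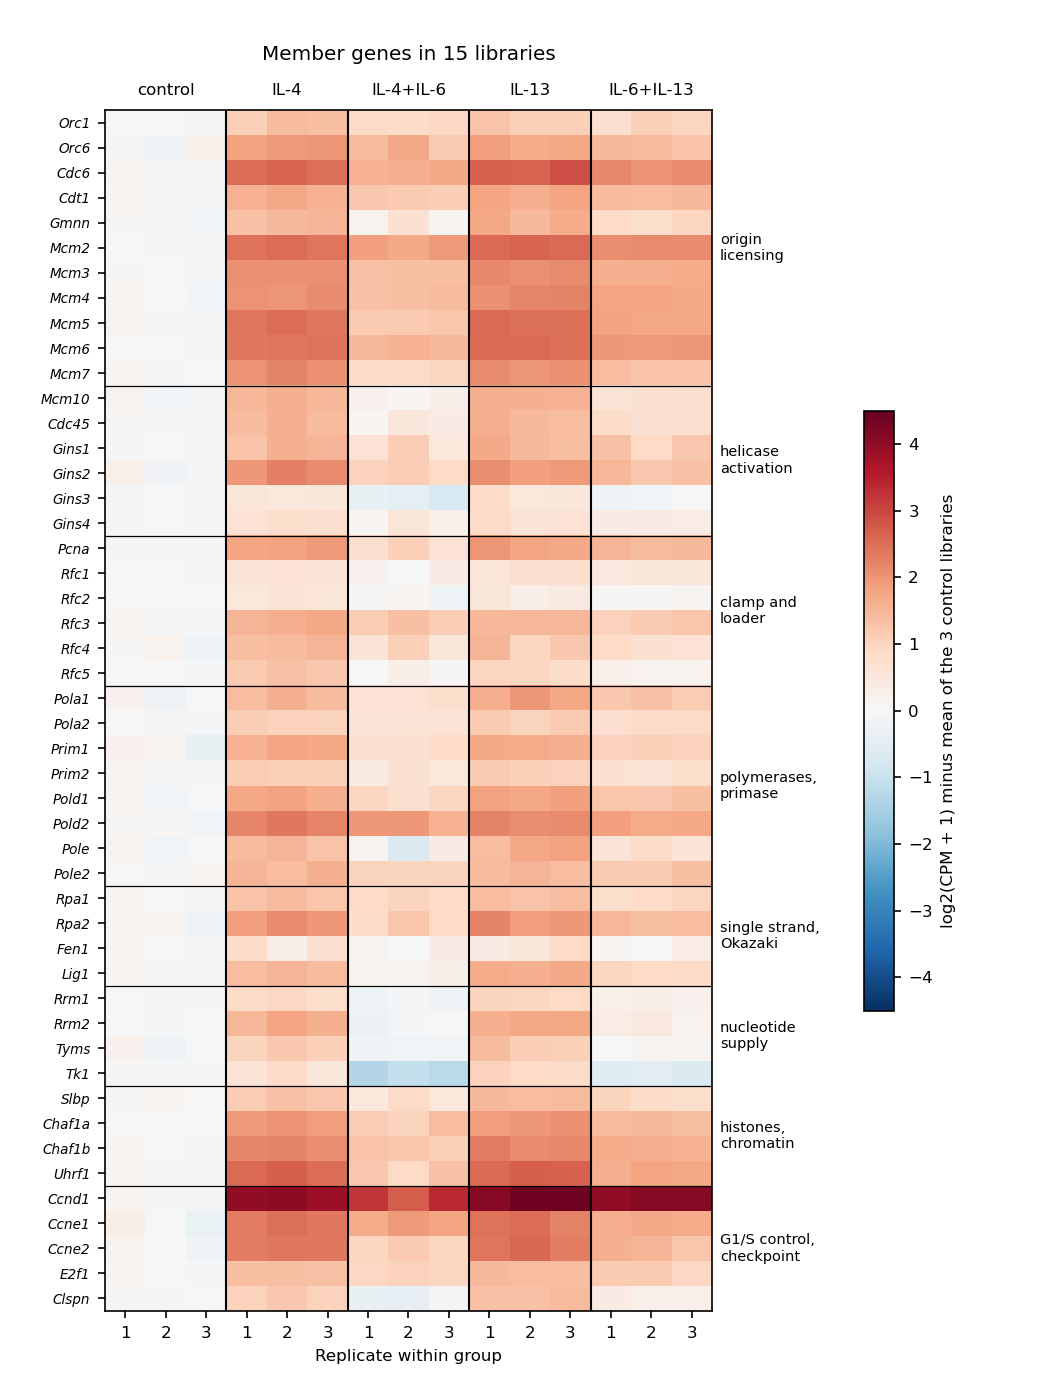
Heat map of the 48 genes (rows, in order of role) in the 15 libraries (columns, 3 per group). Color gives log2(CPM + 1) minus the mean of the 3 control libraries. The libraries with IL-4 or IL-13 alone are red in every row, those with IL-6 are mostly paler, and Tk1 turns blue in both groups with IL-6.

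**Figure D2:**
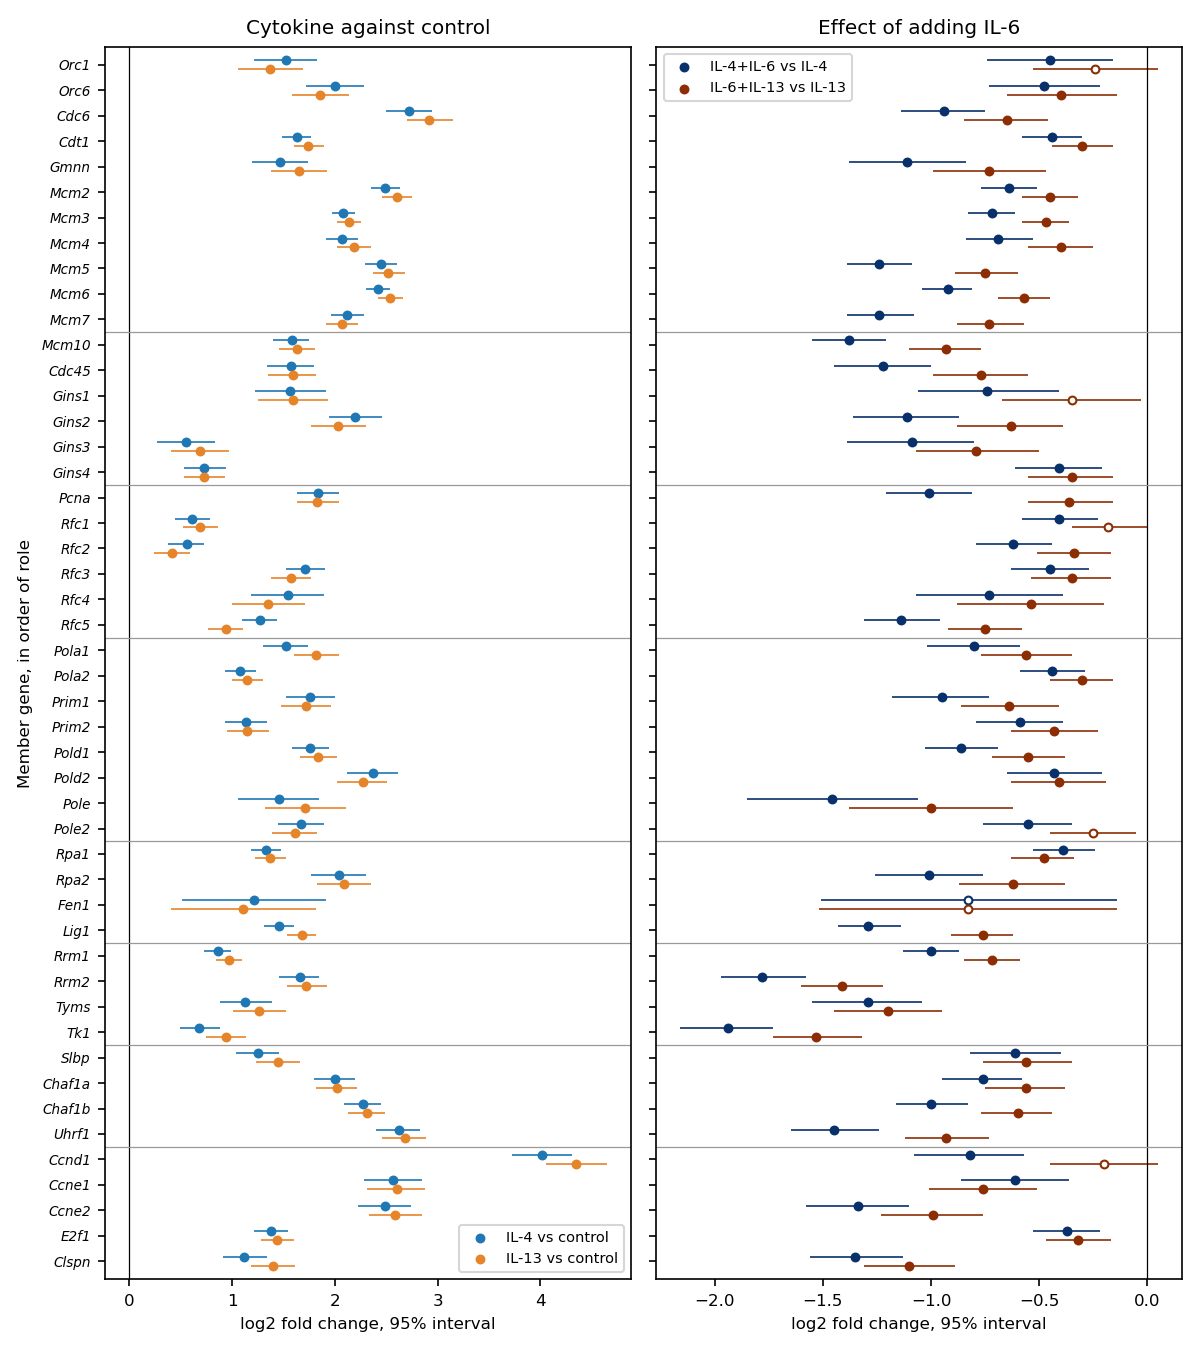
Log2 fold change of each gene with its 95% interval, with the cytokines against control on the left and the effect of adding IL-6 on the right. Filled points have an adjusted p under 0.05 and open points do not. On the left every point lies above 0, with Ccnd1 farthest at 4.02 and 4.35, and on the right every point lies below 0, with Tk1 farthest at -1.94 and -1.53.

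Origin licensing was the largest group, with 11 genes. All 11 were higher with IL-4 (median 2.08) and with IL-13 (median 2.14), each by more than 1, and all stayed higher than control in IL-4+IL-6 (median 1.36, with 35.4% of all genes called higher) and IL-6+IL-13 (median 1.66, with 31.9%). Cdc6 (chr11:98907801-98923940), which brings the helicase to the origin, rose most in this group. Its level was 6.51, 5.37 and 5.44 CPM in control, 37.6, 40.5 and 36.5 in IL-4, 18.8, 19.7 and 21.1 with IL-4+IL-6, 41.9, 40.9 and 49.0 in IL-13 and 29.3, 26.2 and 28.2 in IL-6+IL-13. The log2 fold change was 2.72 ± 0.105 (SE) with IL-4 and 2.92 ± 0.105 with IL-13, and adding IL-6 changed it by -0.94 ± 0.0929 and -0.65 ± 0.0904. Mcm5 (chr8:75109569-75128439) fell most with IL-6. It was at 55.7, 47.3 and 46.2 CPM in control, 266, 285 and 263 in IL-4, 113, 114 and 118 with IL-4+IL-6, 297, 279 and 281 in IL-13 and 176, 167 and 168 in IL-6+IL-13. It rose by 2.45 ± 0.0731 with IL-4 and fell by 1.24 ± 0.0696 when IL-6 was added (adjusted p = 1.87e-10), and by 0.75 ± 0.0686 with IL-13 as partner (adjusted p = 2.06e-07). Each of the 5 groups occupied a range of its own for Mcm5 except IL-4 and IL-13, which overlapped.

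Mcm2 (chr6:88883474-88898780), another helicase subunit, was at 31.6, 30.1 and 32.6 CPM in control, 175, 183 and 172 in IL-4, 115, 104 and 122 with IL-4+IL-6, 189, 196 and 188 in IL-13 and 138, 140 and 141 in IL-6+IL-13. It fell by less than Mcm5 with IL-6, by 0.64 ± 0.0627 and by 0.45 ± 0.0623. The 6 subunits of the helicase ring thus rose by similar amounts with IL-4 (2.07 to 2.49), while their changes with IL-6 on top of IL-4 spread from -1.24 for Mcm5 and Mcm7 to -0.64 for Mcm2. Per gene length, Mcm6 was the most abundant of the 6 in IL-4, at 102 FPKM ± 2.53 (SD, n = 3), and Mcm2 the least, at 25.7 FPKM ± 0.955. Geminin (Gmnn), which holds CDT1 back once S phase has begun, rose by 1.47 with IL-4 and fell by 1.11 with IL-6, whereas Cdt1 itself rose by 1.63 and fell by 0.44. Gmnn was the licensing gene nearest to control in IL-4+IL-6 (0.36 ± 0.13, adjusted p = 0.0209), and this call rested on replicate 2 of that group, without which it was 0.17 (adjusted p = 0.133), and on control replicate 3, without which it was 0.30 (adjusted p = 0.0854). Orc1 and Orc6, subunits of the origin recognition complex, rose by 1.52 and 2.00 with IL-4, and fell by 0.45 and 0.48 when IL-6 was added. Orc1 was among the genes without a call for IL-6 on top of IL-13 (-0.24, adjusted p = 0.232). The call of Orc1 in IL-4+IL-6 was lost without IL-4 replicate 2 (-0.40, adjusted p = 0.0602), and that of Orc6 in IL-6+IL-13 against IL-13 (-0.40) without IL-13 replicate 1 (-0.34, adjusted p = 0.0611) or without IL-6+IL-13 replicate 3 (-0.36, adjusted p = 0.0767).

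The 6 genes that activate the helicase were all higher with IL-4 (0.55 to 2.2) and IL-13 (0.69 to 2.03), and all 6 fell with IL-6 on top of IL-4, 4 of them by more than 1. Gins2 (chr8:120578633-120589304), a subunit of the GINS complex, rose most. It was at 13.3, 9.86 and 10.6 CPM in control, 45.9, 56.9 and 52.5 in IL-4, 24.1, 26.1 and 21.5 with IL-4+IL-6, 51.3, 42.4 and 44.6 in IL-13 and 33.1, 27.0 and 29.0 in IL-6+IL-13. Of its exon bases, 67.3% are shared with the antisense gene Gse1, so that reads of both may be mixed in this value or left out of it. Mcm10 (chr2:4989714-5012791), which takes part in switching the helicase on, fell most. Its level was 19.2, 15.6 and 16.3 CPM in control, 49.8, 52.8 and 49.9 in IL-4, 19.7, 18.3 and 20.6 with IL-4+IL-6, 52.8, 53.7 and 51.9 in IL-13 and 26.3, 27.9 and 28.7 in IL-6+IL-13. It rose by 1.58 ± 0.0822 with IL-4, fell by 1.38 ± 0.0816 with IL-6, and its IL-4+IL-6 libraries overlapped those of control. Its difference from control there (0.20, adjusted p = 0.0448) was lost without control replicate 2 or 3 and without IL-4+IL-6 replicate 1 or 3 (0.14, 0.16, 0.21 and 0.15).

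The members of the GINS complex did not move alike. Gins1 and Gins2 rose by 1.56 and 2.2 with IL-4, whereas Gins3 and Gins4 rose by 0.55 and 0.73. Gins3 was at 7.5, 8.20 and 8.30 CPM in control and at 12, 11.6 and 11.7 in IL-4. With IL-6 added to IL-4 it was at 6.12, 5.83 and 4.55, where it was lower than control (-0.54 ± 0.142, adjusted p = 0.00271). In IL-6+IL-13 it was at 7.11, 7.32 and 8.06, and had no call against control (-0.09, adjusted p = 0.572). Cdc45 rose by 1.57 and fell by 1.22, and was slightly above control in IL-4+IL-6 (0.35), a call that was lost without control replicate 3 (0.30, adjusted p = 0.0543). Gins1 was not called for IL-6 on top of IL-13 (-0.35 ± 0.152, adjusted p = 0.108), although its libraries did not overlap.

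Pcna (chr2:132249162-132253314), the sliding clamp, was the most abundant member per gene length, at 125 FPKM in control and 433 ± 16.6 (SD, n = 3) in IL-4. It was at 299, 297 and 267 CPM in control, 990, 1019 and 1074 in IL-4, 486, 598 and 448 with IL-4+IL-6, 1140, 990 and 943 in IL-13 and 837, 771 and 795 in IL-6+IL-13. It rose by 1.84 ± 0.0964 with IL-4 and by 1.83 ± 0.0964 with IL-13. Adding IL-6 lowered it by 1.01 ± 0.0942 on top of IL-4, and by 0.36 ± 0.0933 on top of IL-13. All libraries with IL-6 were below those without it and above control.

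The 5 subunits of the clamp loader split into genes that rose by more than 1 with IL-4 (Rfc3, Rfc4 and Rfc5, at 1.71, 1.54 and 1.27) and genes that rose less (Rfc1 and Rfc2, at 0.61 and 0.56). Rfc5 (chr5:117378103-117389047) fell most with IL-6. It was at 28.1, 28.2 and 27.1 CPM in control, 64.4, 70.4 and 66.2 in IL-4, 28.2, 34.5 and 28.8 with IL-4+IL-6, 55.3, 54.8 and 49.6 in IL-13 and 33.0, 31.1 and 31.1 in IL-6+IL-13. Its changes with IL-6 were -1.14 ± 0.081 and -0.75 ± 0.0808, and it had no call against control in either group with IL-6 (0.13 and 0.19, adjusted p = 0.157 and 0.0529), although its libraries lay above those of control in both. Rfc2 was likewise near control in both (-0.06 and 0.08). Rfc1 was slightly above control in IL-4+IL-6 (0.20), a call lost without any 1 of the 3 control libraries (0.19, 0.20 and 0.22) and without IL-4+IL-6 replicate 3 (0.10), and at 0.32 without replicate 2. For IL-6 on top of IL-13 it had no call (-0.18), but did without IL-13 replicate 1 (-0.25, adjusted p = 0.0418). Rfc4 fell by 0.54 with IL-6 on top of IL-13, which lost its call without IL-13 replicate 1 (-0.38) or without replicate 2 or 3 of IL-6+IL-13 (-0.50 each).

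The 8 genes of polymerases and primase rose by 1.08 to 2.37 with IL-4 and by 1.15 to 2.27 with IL-13, all of them by more than 1. Pold2 (chr11:5872180-5878292), an accessory subunit of polymerase delta, rose most and fell little. It was at 9.68, 9.75 and 8.47 CPM in control, 45.6, 52.7 and 45.8 in IL-4, 39.2, 38.5 and 29.4 with IL-4+IL-6, 47.5, 42.7 and 44.1 in IL-13 and 36.1, 31.5 and 33.2 in IL-6+IL-13. With IL-6 it fell by 0.43 ± 0.103 and 0.41 ± 0.104, and it stayed higher than control by 1.94 and 1.85. Pole (chr5:110286306-110337474), the catalytic subunit of polymerase epsilon and the member with the longest exons, fell most. Its level was 18.7, 15.5 and 17.2 CPM in control, 47.6, 51.3 and 42.6 in IL-4, 18.8, 10.4 and 22.3 with IL-4+IL-6, 46.9, 59.3 and 62.6 in IL-13 and 25.9, 31.5 and 26.9 in IL-6+IL-13. The low value of 10.4 is in IL-4+IL-6 replicate 2, in which long genes were low. The change with IL-6 was -1.46 ± 0.187, was -1.21 without that replicate (adjusted p = 3.28e-07), and was -1.45 when the trend with gene length was removed from every library, an alternative chosen after seeing the data.

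The other subunits lay between. Pola1, Pola2, Prim1 and Prim2, which make up polymerase alpha and its primase, rose by 1.52, 1.08, 1.76 and 1.14 with IL-4, and fell by 0.80, 0.44, 0.95 and 0.59 with IL-6. Pold1, the catalytic subunit of polymerase delta, rose by 1.76 and fell by 0.86. Pole2, an accessory subunit of polymerase epsilon, rose by 1.67 and fell by 0.55, and in IL-6+IL-13 its change from IL-13 was -0.25 without a call (adjusted p = 0.0675), which became one without IL-6+IL-13 replicate 3 (-0.32, adjusted p = 0.0375). The catalytic and accessory subunits of polymerases delta and epsilon thus differed in the size of the fall, with -0.86 and -0.43 for Pold1 and Pold2 and -1.46 and -0.55 for Pole and Pole2, and these differences between genes were not tested.

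Among the 4 genes for single-stranded DNA and Okazaki fragments, Rpa2 (chr4:132768332-132778752), a subunit of the single-strand binding protein RPA, rose most. It was at 17.4, 17.6 and 14.7 CPM in control, 61.5, 74.6 and 67.5 in IL-4, 29.8, 40.1 and 31.3 with IL-4+IL-6, 81.2, 62.9 and 67.2 in IL-13 and 47.8, 44.2 and 45.3 in IL-6+IL-13. Its partner Rpa1 rose by 1.33 against 2.04 for Rpa2, and fell by 0.39 against 1.01 with IL-6 on top of IL-4. Lig1 (chr7:13277283-13311433), the ligase that joins the fragments, returned almost to control with IL-4+IL-6. Its level was 58.6, 52.4 and 53.2 CPM in control, 146, 159 and 147 in IL-4, 59.1, 59.2 and 66.6 with IL-4+IL-6, 175, 169 and 181 in IL-13 and 107, 102 and 100 in IL-6+IL-13. The remaining difference from control was 0.17 ± 0.0697 in IL-4+IL-6 (adjusted p = 0.0361, lost at 0.14 without control replicate 2 or 3 and at 0.11 without IL-4+IL-6 replicate 3) and 0.91 ± 0.0692 in IL-6+IL-13.

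Fen1 (chr19:10199132-10204169), the flap endonuclease, was the lowest member, at 0.885, 0.775 and 0.673 CPM in control, 2.25, 1.16 and 2.02 in IL-4, 0.963, 0.766 and 1.32 with IL-4+IL-6, 1.28, 1.52 and 2.27 in IL-13 and 0.867, 0.759 and 1.22 in IL-6+IL-13. Of its exon bases, 78.8% are shared with the antisense gene Gm10143, whose mean count was 7.3 against 22.8 for Fen1. The counting tool is not given, so reads over these bases may be mixed into the counts of Fen1 or left out of them. The part of this in its low level was not tested. Fen1 was called higher with IL-4 (1.21 ± 0.332, adjusted p = 0.00402) and with IL-13 (1.11, adjusted p = 0.00857, but 0.85 and 0.0581 without IL-13 replicate 3). For IL-6 its values of -0.83 on top of either cytokine had no call, but did on top of IL-4 without IL-4 replicate 2 or IL-4+IL-6 replicate 3 (-1.09 and -1.08), and on top of IL-13 without IL-13 replicate 1 (-1).

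The 4 genes of nucleotide supply fell most with IL-6, with medians of -1.54 on top of IL-4 and -1.30 on top of IL-13, against -0.84 and -0.57 for all 48. They had risen least with IL-4, with a median of 1.00. Tk1 (chr11:117815526-117826092), the thymidine kinase that salvages thymidine in S phase, was at 34.6, 31.6 and 34.4 CPM in control, 51.7, 62.0 and 48 in IL-4, 12.9, 15.3 and 13.8 with IL-4+IL-6, 70.0, 62.5 and 61.2 in IL-13 and 22.4, 23.1 and 21.7 in IL-6+IL-13. It rose by 0.68 ± 0.0939 with IL-4, and with IL-6 it fell by 1.94 ± 0.101 (adjusted p = 6.59e-11) and 1.53 ± 0.0965 (adjusted p = 1.78e-09). Both groups with IL-6 were below every control library, by 1.26 and 0.58 on the log2 scale. Rrm2 (chr12:24708241-24714146), the small subunit of ribonucleotide reductase, was at 35.6, 33.4 and 35.7 CPM in control, 101, 121 and 109 in IL-4, 28.7, 33.7 and 34.1 with IL-4+IL-6, 108, 120 and 118 in IL-13 and 43.9, 47.7 and 38.9 in IL-6+IL-13. It rose by 1.66 ± 0.092 and fell by 1.78 ± 0.0928 and 1.41 ± 0.0908, so that its IL-4+IL-6 libraries overlapped control.

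The large subunit Rrm1 rose by 0.86 and fell by 1.00 with IL-6. Its small difference from control in IL-4+IL-6 (-0.14, adjusted p = 0.0463) is not firm, since it lost its call without control replicate 1 or 3 (-0.13 each) or IL-4+IL-6 replicate 1 or 3 (-0.09 and -0.14), and was 0.30 once the trend with gene length was removed. Thymidylate synthase (Tyms) rose by 1.13 and fell by 1.29 and 1.20, and in the groups with IL-6 it had no call against control (-0.16 and 0.06) and overlapped it. In IL-4+IL-6 the 4 genes thus lay between -1.26 and -0.12 of control, whereas the 11 licensing genes lay between 0.36 and 1.85 above it.

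**Figure D3:**
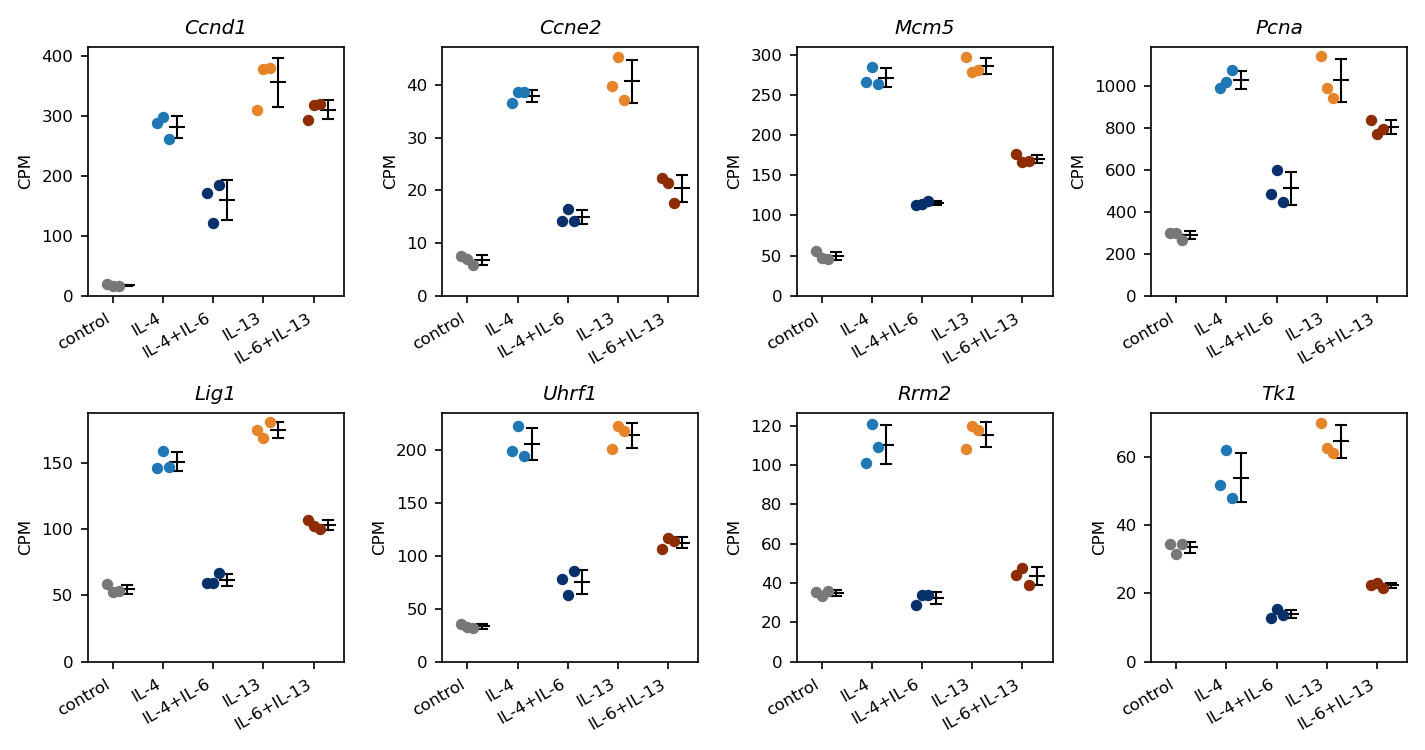
Level of 8 genes in each library (CPM, linear axis from 0). Points are the 3 libraries of a group and the bars beside them give the mean ± SD. In Tk1 and Rrm2 the IL-4+IL-6 libraries lie at or below control, and in Ccnd1 all libraries with a cytokine lie far above it. In all 8 genes the IL-6+IL-13 libraries lie above those with IL-4+IL-6.

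The 4 genes of histones and chromatin rose by 1.25 to 2.62 with IL-4 and all fell with IL-6 on top of either cytokine. Uhrf1 (chr17:56303321-56323486) led both ways. It was at 36.1, 32.5 and 31.8 CPM in control, 199, 223 and 195 in IL-4, 78.3, 62.7 and 85.4 with IL-4+IL-6, 201, 223 and 218 in IL-13 and 107, 117 and 114 in IL-6+IL-13. It rose by 2.62 ± 0.101 and 2.68 ± 0.101, and fell by 1.45 ± 0.0959 and 0.93 ± 0.0941. Chaf1a and Chaf1b, subunits of the chromatin assembly factor that puts histones onto new DNA, rose by 2.00 and 2.27 and fell by 0.76 and 1.00. By GENCODE, 4648 of the 8854 exon bases of Chaf1a (52.5%) are shared with the antisense gene Ubxn6. The length implied by FPKM for Chaf1a is only 3308 bases, so this share need not hold for the exons that were counted. Slbp, which binds the stem-loop of histone mRNA, rose by 1.25 and fell by 0.61.

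Cyclin D1 (Ccnd1, chr7:144929931-144939925), the cyclin that links growth factors to the cell cycle, changed most of all members. Its level was 18.7, 16.8 and 16.6 CPM in control, 287, 297 and 261 in IL-4, 171, 121 and 185 with IL-4+IL-6, 309, 378 and 379 in IL-13 and 292, 318 and 320 in IL-6+IL-13. It rose 16.2-fold with IL-4 (log2 4.02 ± 0.14, adjusted p = 2.19e-13) and 20.4-fold with IL-13 (4.35 ± 0.142). IL-6 lowered it by 0.82 ± 0.12 on top of IL-4 (adjusted p = 2.62e-05, and by 0.68 without the low replicate 2), whereas on top of IL-13 the value was -0.20 ± 0.119 without a call (adjusted p = 0.265) and the libraries overlapped. Of its exon bases 23.4% are shared with the antisense gene LTO1.

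The E cyclins, which act with CDK2 at the entry to S phase, both rose and both fell with IL-6. Ccne1 (chr7:38097984-38107534) was at 6.04, 4.98 and 3.76 CPM in control, 27.8, 31.3 and 29.0 in IL-4, 17.8, 21.1 and 18.9 with IL-4+IL-6, 30.7, 32.5 and 26.6 in IL-13 and 17.2, 18 and 17.6 in IL-6+IL-13. Ccne2 (chr4:11191351-11204779) was at 7.60, 6.87 and 5.77 CPM in control, 36.6, 38.6 and 38.6 in IL-4, 14.2, 16.5 and 14.2 with IL-4+IL-6, 39.7, 45.2 and 37.2 in IL-13 and 22.3, 21.4 and 17.5 in IL-6+IL-13. With IL-4, Ccne1 rose by 2.57 and Ccne2 by 2.49. Adding IL-6 to IL-4 lowered Ccne1 by 0.61 ± 0.118 and Ccne2 by 1.34 ± 0.112, and adding it to IL-13 lowered them by 0.76 ± 0.118 and 0.99 ± 0.109, and the difference between the genes was not tested.

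E2f1 (chr2:154559407-154569892), the transcription factor released at this step, was at 32.0, 30.6 and 28.5 CPM in control, 79.4, 79.0 and 78.0 in IL-4, 59.4, 63.2 and 59.8 with IL-4+IL-6, 84.9, 81.3 and 80.7 in IL-13 and 69.8, 69.7 and 58.3 in IL-6+IL-13. It fell least of all members called with IL-6 on top of IL-4, by 0.37 ± 0.0732. Claspin (Clspn, chr4:126556935-126593903), which carries the replication checkpoint signal, was at 23.2, 21.2 and 22.4 CPM in control, 46.3, 52.3 and 47 in IL-4, 17.3, 16.8 and 23.1 with IL-4+IL-6, 56.9, 57.5 and 61.3 in IL-13 and 29.2, 26.5 and 26.4 in IL-6+IL-13. It rose by 1.12 ± 0.101 and 1.40 ± 0.101 and fell by 1.35 ± 0.103 and 1.10 ± 0.0999. In IL-4+IL-6 it overlapped control, and in IL-6+IL-13 it was 0.30 above control, a call lost without control replicate 2 (0.26) or IL-6+IL-13 replicate 1 (0.28) and at 0.54 with the trend with gene length removed.

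Set against control directly, IL-4+IL-6 left 38 of 48 genes higher (35.4% of all genes) and 3 lower (37.5% of all genes), namely Gins3, Rrm1 and Tk1. The 7 without a call were Rfc2, Rfc5, Pole, Fen1, Rrm2, Tyms and Clspn. IL-6+IL-13 left 42 higher (31.9% of all genes) and 1 lower (32.1% of all genes), which was Tk1. The median member change was 0.86 in IL-4+IL-6 and 1.18 in IL-6+IL-13. These comparisons share libraries with those above, and their values follow from them in part.

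Between IL-4 and IL-13, 46 of the 48 genes had no call. Rfc5 was higher with IL-4 (0.33 ± 0.0784, adjusted p = 0.00894, with 5.16% of all genes called higher) and Lig1 lower (-0.22 ± 0.0669, adjusted p = 0.0403, with 7.61% of all genes called lower). These shares are 719 and 1060 genes, which became 1291 and 1623 without IL-13 replicate 1, 474 and 675 without IL-13 replicate 2, and 444 and 644 without IL-13 replicate 3, while the genes called lower were 664 and 647 without IL-4 replicates 2 and 3. The call of Lig1 was lost without any 1 of the 6 libraries of the comparison (-0.25 to -0.19), and that of Rfc5 without IL-13 replicate 3 (0.28, adjusted p = 0.0609). The member differences ran from -0.33 to 0.33. For Ccnd1 the value was -0.33 with a 95% interval of -0.59 to -0.08 without a call, and for Mcm5 it was -0.07 with an interval of -0.22 to 0.07. The doses of the cytokines differ, so that this compares the cultures as treated.

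The effect of IL-6 differed between the partner cytokines for some genes. The difference between the effects had a median of -0.29 over the 48 (-0.65 to 0.16), against 0.02 over all genes. The doses of IL-4 and IL-13 differ here as well. In the test of the difference itself, 11 of 48 fell more on top of IL-4 than on top of IL-13 (4.42% of all genes were called in that direction), and 37 had no call. They were the helicase genes Mcm3, Mcm5, Mcm6 and Mcm7, together with Mcm10, Pcna, Rfc5, Lig1, Chaf1b, Uhrf1 and Ccnd1. The largest difference was that of Pcna, at -0.65 ± 0.132 (adjusted p = 0.00404), and Ccnd1 followed with -0.63 ± 0.168 (adjusted p = 0.0283). The number of calls was 19 without IL-4+IL-6 replicate 2, 15 without IL-13 replicate 1, 5 without IL-4 replicate 2, 6 without IL-6+IL-13 replicate 2, and 7 without IL-4 replicate 1, IL-13 replicate 3 or IL-6+IL-13 replicate 3. The calls of Mcm5, Mcm6, Mcm7, Pcna and Lig1 were kept in each of these.

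**Figure D4:**
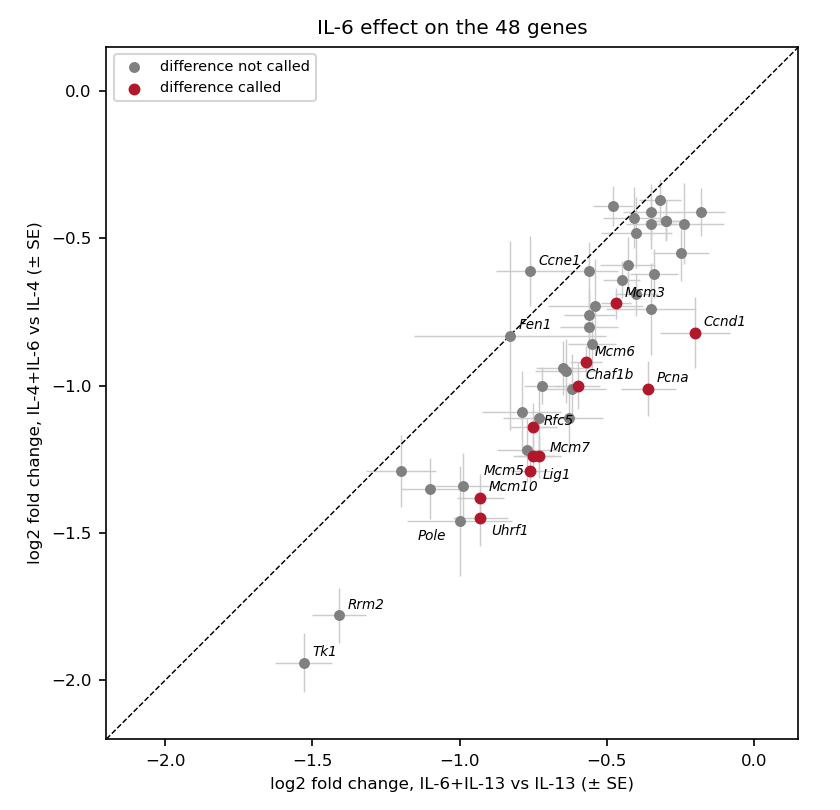
Effect of adding IL-6 on each of the 48 genes, with IL-13 as partner (horizontal axis) and with IL-4 as partner (vertical axis), as log2 fold change ± SE. The dashed line marks equal effects. The 11 genes whose difference was called (red) lie below it, with Pcna and Ccnd1 farthest from it, and Tk1 and Rrm2 are the lowest on both axes.

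Genes of the same pathway outside the 48 were taken from lists. Of 32 other replication factors, 24 were higher with IL-4 (32.1% of all genes) and 1 lower (35.9% of all genes), with a median of 1.05, and 16 were lower (18.7% of all genes) and 3 higher (20.7% of all genes) when IL-6 was added to IL-4, with a median of -0.30. The largest changes with IL-4 were those of Dscc1, which loads the clamp for cohesion (2.65 ± 0.179), and of Dut, an enzyme of thymidine nucleotide synthesis (2.55 ± 0.144). The helicase and nuclease Dna2 had no call with IL-4 (0.18) but fell by 2.26 ± 0.112 with IL-6, against 1.94 for Tk1, the member with the largest fall. Dck, the deoxycytidine kinase of nucleotide salvage, rose by 1.33 with IL-4, which also raised Tk1, but rose by a further 0.83 ± 0.0614 with IL-6, where Tk1 fell, and it is named here after its values were seen.

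Of 17 other cyclins, kinases and E2F factors of G1/S, 10 were higher and 4 lower with IL-4 (32.1% and 35.9% of all genes), and 2 were higher and 10 lower with IL-6 on top of it (20.7% and 18.7% of all genes). Myc, a regulator of growth, rose from 11.8 to 123 CPM with IL-4 (3.38 ± 0.0706) and had no call with IL-6 (0.06, adjusted p = 0.475), while its relative Mycn, at no more than 27 counts in any library, fell from 1.13 to 0.0553 CPM with IL-4. Cyclin A2 (Ccna2), which acts later in S phase, was lower with IL-4 (-0.78) and fell by a further 1.94 ± 0.104 with IL-6, and E2f7 and E2f8, repressors of E2F targets, rose by 1.12 and 0.83 and fell by 2.07 and 1.5. Of 14 inhibitors of this step, 7 were higher and 5 lower with IL-4, and 2 were higher and 5 lower with IL-6 on top of it, against the same shares of all genes. Cdkn1a, which encodes the kinase inhibitor p21, rose from 30.3 to 212 CPM with IL-4 (2.81 ± 0.101) and on to 368 with IL-6 (0.79 ± 0.0922). Cdkn2d, which inhibits the cyclin D kinases, fell by 0.83 with IL-4 and rose by 0.90 ± 0.12 with IL-6, and Cdkn1c fell by 3.67 ± 0.249 and by a further 1.78.

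Against control, most genes of mitosis were lower where those of replication were higher, and with IL-6 both fell. Of 16 mitosis genes, 14 were lower with IL-4 (35.9% of all genes), with a median of -1.44, and with IL-13 13 were lower (31.1% of all genes) and 1 higher (29.0% of all genes), with a median of -0.99. Ccnb2, a cyclin of mitosis, fell by 2.59 ± 0.141 with IL-4 and by a further 2.31 ± 0.185 with IL-6, and Mki67, used widely as a mark of dividing cells, fell by 1.59 ± 0.153 and 1.51 ± 0.157. The exceptions with IL-4 were Cdk1 (0.14) and Aurkb (-0.16), which had no call. With IL-6, 16 of 16 were lower on top of IL-4 (18.7% of all genes, median -1.55) and on top of IL-13 (13.5% of all genes, median -1.34). The summed level of the 16 was 1320 to 1590 CPM in control, 623 to 676 in IL-4, 214 to 248 with IL-4+IL-6, 761 to 867 in IL-13 and 283 to 332 in IL-6+IL-13. The control libraries were thus the lowest of the 5 groups for the sum of replication genes and the highest for the sum of mitosis genes.

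**Figure D5:**
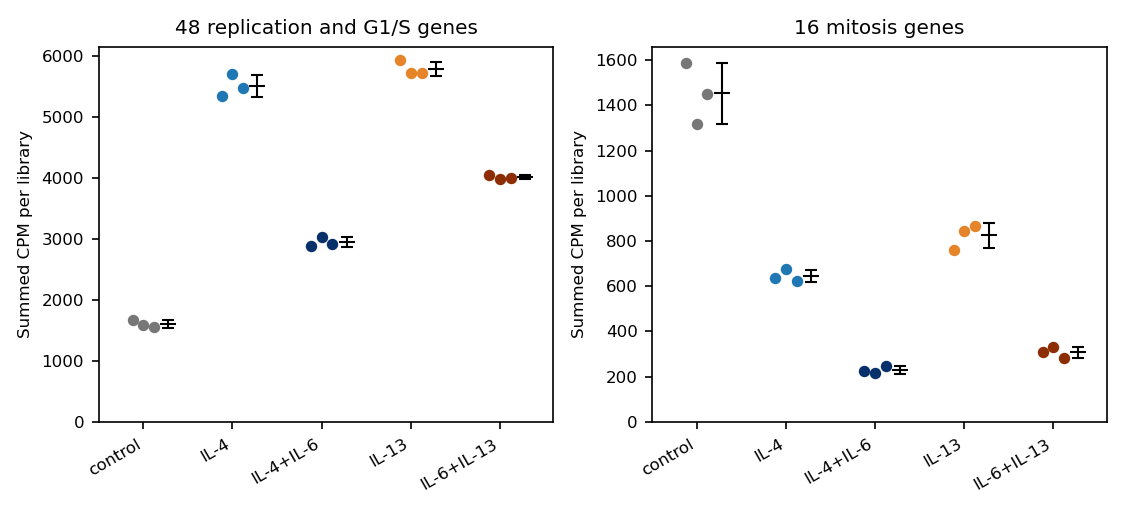
Summed CPM per library of the 48 replication and G1/S genes (left) and of 16 mitosis genes (right), on linear axes from 0. Points are the 3 libraries of a group and the bars beside them give the mean ± SD. The control libraries are lowest on the left, at 1550 to 1673, and highest on the right, at 1320 to 1590.

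Markers of other cells moved with the comparison to control as well. The summed level of 8 neutrophil markers was 439 to 517 CPM in control and 24.0 to 25.9 in IL-4, where Camp, Ltf and Retnlg were at 0 and Mmp8 held most of the sum, and 6 of the 7 tested were lower (35.9% of all genes). That of 11 markers of progenitors and monocytes was 1110 to 1120 and 224 to 254, mostly Cd93 in each group (885 in control, 217 in IL-4), with all 11 lower in IL-4 (35.9% of all genes), and Elane was at 24.4 CPM in control and at 0.0551 in IL-4, where Flt3 was at 0. Markers of megakaryocytes and platelets (6 genes) summed to 378 to 422 in control and 70.4 to 74.8 in IL-4, those of mast cells and basophils (5 genes) to 11.5 to 13.9 and 0.0545 to 0.221, and stromal markers (6 genes) to 15.7 to 19.6 and 0 to 0.107, with Col1a1 and Col1a2 at 0. Lymphocyte markers (7 genes) summed to 4.71 to 5.26 in control and 0.535 to 0.608 in IL-4, and erythroid markers (6 genes) to 0.897 to 1.27 and 0 to 0.166. Dividing progenitors also express genes of replication and of mitosis, and the part of these cells in the differences from control was not tested. In the comparisons of IL-6, the sums were at most 25.9 CPM for neutrophil markers, 0.236 for those of mast cells and basophils and 0.23 for stromal markers in any library with a cytokine, and the sum for progenitors and monocytes was 132 to 195 in IL-4+IL-6 against 224 to 254 in IL-4, with 4 of 11 lower (18.7% of all genes) and Cd93 at 164 in IL-4+IL-6. It was 619 to 669 in IL-6+IL-13 against 443 to 571 in IL-13, where 3 of 11 were lower (13.5% of all genes), namely Kit, Cd34 and Ccr2 (log2 fold changes of -1.47, -2.06 and -0.46), and 1 was higher (12.1% of all genes), which was Cd93 (493 and 620 CPM). The sum for neutrophil markers was 10.8 to 11.8 in IL-4+IL-6 against 24.0 to 25.9 in IL-4, and 12.2 to 12.9 in IL-6+IL-13 against 21.4 to 24.1 in IL-13. Of the 7 tested, 1 was lower in each (18.7% and 13.5% of all genes), which was Mmp8 (-1.21 and -0.91). The sum for megakaryocytes and platelets was higher with IL-6 (175 to 314 in IL-4+IL-6 and 349 to 421 in IL-6+IL-13), mostly in Pf4, with 2 of 6 higher on top of either cytokine (20.7% and 12.1% of all genes), and its part was not tested.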

How the data were processed

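RNA of 15 libraries from mouse BMDMs in 5 groups of 3 was sequenced. The authors deposited raw counts per gene for 53465 Ensembl genes, as whole numbers, and FPKM values for 26080 genes, which the authors had derived from these counts with a gene length and the library total. The submitters' processing notes name GRCm38, CASAVA, Bowtie2 2.2.3, HISAT2 2.1.0, TopHat2 and DESeq2, with no role or order, and the counting tool and strand setting are not given in the sources used here. Without strand, reads of a gene and its antisense partner cannot be told apart, and 18 members share exon bases with another gene. Coordinates come from GENCODE M21 of the same build, and the length implied by FPKM was within 1 base of its exon union for 44 of 48 members.

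Counts were fitted with edgeR 4.0.16 in R 4.3.3 (filterByExpr with a minimum count of 10, TMM factors, 1 fit of all 15 libraries without covariates, quasi-likelihood F-test, Benjamini-Hochberg adjustment over 13938 genes). A gene was called at an adjusted p under 0.05, and a second rule added a log2 fold change beyond 1. CPM were scaled with the TMM factors. Total counts of 17001352 to 18918686 per library set the precision of single values. On simulated data for IL-4+IL-6 against IL-4, the fit called 44 of 67 genes changed 1.5-fold and 59 of 67 changed 2-fold. It also called 65 of 66 changed 4-fold and 9 of 13327 unchanged genes. The changed and unchanged genes together are fewer than the 13938 tested. The real groups differ in spread, with biological coefficients of variation of 14.9% with IL-6 added and 4.54% without it. The simulation was not tested with that unequal spread, so its rates need not hold for the real comparison. The alternatives were upper-quartile normalization, DESeq2 1.42.0, no filter on low counts, only the groups compared, a replicate block, each library left out in turn, FPKM for the summed level and, added after seeing the data, removal of the trend with gene length per library. The mean chi-square per gene between replicates was at least 2.6 in every pair, above counting error, and none was counted as a duplicate.

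Members and lists were chosen with earlier results of these data known. Named by rule were, in each role, the member with the largest change in each of 4 comparisons (both cytokines against control and IL-6 on top of each), and Pcna, Mcm2, Ccnd1, Ccne1, Ccne2, E2f1 and Rrm2, with the other members by their changes. Of the pathway lists, counts and up to 4 called genes with the largest changes in a comparison are named. Lists of cell markers are given by their sums, with counts for macrophages, neutrophils, progenitors and platelets, by such genes and by markers at 0. Mmp8, Gins3, Dck, Cdk1 and Aurkb were taken up in detail after their values were seen. A strain detail and 2 list genes are not reported here.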

Additional observations from a re-analysis of the deposited data

Results flagged for a closer look

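The effect of IL-6 differed between the 2 partner cytokines for 11 genes in the edgeR test of that difference, and in all 11 the change was more negative on top of IL-4. Of all genes, 4.42% were called in that direction, and 37 of the 48 members had no call. The median difference over the 48 was -0.29, against 0.02 over all genes. The log2 difference was -0.25 for Mcm3, -0.49 for Mcm5, -0.35 for Mcm6, -0.51 for Mcm7, -0.44 for Mcm10, -0.65 for Pcna, -0.39 for Rfc5, -0.52 for Lig1, -0.40 for Chaf1b, -0.52 for Uhrf1 and -0.63 for Ccnd1. The adjusted p ran from 0.00181 for Lig1 to 0.0498 for Mcm3. Replicate 2 of IL-4+IL-6 and replicate 1 of IL-13 stood apart from their groups, and the count of 11 was 19 without the former, 15 without the latter and 5 without IL-4 replicate 2. With 3 libraries a group, no rule for an outlying value was applied.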

How the results depend on the processing

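Differences from control and the loss of markers of other cells cannot be told apart in this bulk RNA, and no group had IL-6 alone. Depth limits Fen1 most, which had 12 to 44 counts per library.

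All 48 members were called higher with IL-4 and IL-13 under every alternative that kept all libraries, and 47 or 48 were lower with IL-6 on top of IL-4 and 42 or 43 on top of IL-13. When single libraries were left out, the call counts were 48, 47 to 48, 47 to 48 and 41 to 42. The number of members lower with IL-4 than with IL-13 was 1, and it became 0 with upper-quartile normalization, the replicate block and the length trend removed, and 2 with DESeq2, without the filter and with only the groups compared, with 0 to 2 on leaving out single libraries, where higher calls were 0 to 1. The lower calls in the difference of IL-6 effects were 7 with only the groups compared and 5 to 19 on leaving out single libraries. With the length trend removed, 0 members in place of 1 were lower than control by more than 1 in IL-4+IL-6, and Rrm1 reversed from -0.14 to 0.30 there (adjusted p = 0.00638). In FPKM, the summed level with IL-6 was 0.50 of IL-4 and 0.671 of IL-13, in place of 0.535 and 0.692. The cause was not tested for any of these.

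Over all genes tested, the share of higher among called genes moved by over 10 points with the length trend removed, from 47.2% to 59.4% (IL-4), 48.3% to 61.4% (IL-13), 48.6% to 60.5% (IL-4+IL-6) and 49.8% to 62.2% (IL-6+IL-13) against control, and from 40.4% to 52.4% for IL-4 against IL-13. In the last, the 719 genes higher with IL-4 became 1153 without the filter and 1098 with the length trend removed. It moved with upper-quartile normalization from 52.6% to 39.0% for IL-4+IL-6 against IL-4 and from 42.2% to 31.7% for the difference of IL-6 effects, and without the filter the latter was 31.5%. Removing the length trend moved the median of all genes from -0.05 to 0.13 with IL-4, from -0.02 to 0.12 with IL-13, from -0.05 to 0.17 with IL-4+IL-6 and from -0.01 to 0.17 with IL-6+IL-13, against control.

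The labels do not say whether the replicate numbers pair the samples, and the main fit took them as unpaired. Same-numbered deviations correlated between -0.206 and 0.288, and not above 0.1 in all pairs of any comparison. With 3 libraries a group, and length trends in single libraries, this cannot exclude a pairing. With a replicate block, 48 members were higher with IL-4 and 48 were lower with IL-6 on top of IL-4.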
